A study of Mus musculus with 4 samples.

Results

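The 10 genes described here encode 7 aquaporins (*Aqp1*, *Aqp2*, *Aqp3*, *Aqp4*, *Aqp6*, *Aqp7* and *Aqp11*), 2 vasopressin receptors (*Avpr2* and *Avpr1a*) and adenylyl cyclase 6 (*Adcy6*). They were taken by symbol from the 31053 genes of the count matrices, without use of their values, and each symbol matched 1 row. The matrices hold single-nucleus RNA-seq (snRNA-seq) counts from 4 mice, in which transcripts of single nuclei were counted near their 3′ ends as unique molecular identifiers (UMIs). The animals were 12-week-old males, and kidney cortex was cut away from the tissue used, to favour cells of the medulla. The 2 knockout mice were Hoxb7Cre+;Tfap2a fl/fl. In these animals the *Hoxb7* promoter drives Cre in collecting duct (CD) and lower urinary tract epithelium, where Cre removes exons 5 and 6 of the transcription factor gene *Tfap2a*. The 2 control mice were Cre-negative littermates that carried the same floxed *Tfap2a* alleles, so the groups differ by Cre itself as well as by the deletion.

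Aquaporins are membrane channels for water, and some of them also pass glycerol. In the CD, the pituitary hormone vasopressin binds the V2 receptor (*Avpr2*) on principal cells, adenylyl cyclases make cyclic AMP, and protein kinase A then sends AQP2 to the luminal membrane, so that water enters the cell and leaves it through AQP3 and AQP4 on the other side. AQP1 is the constitutive water channel of the proximal tubule (PT), the thin descending limb and the descending vasa recta, which makes these genes landmarks of the nephron as well as parts of the urine-concentrating machinery.

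After filtering, 27341 nuclei remained, between 5430 and 7997 per mouse. The libraries held 22179410 to 44964099 UMIs in all, the median nucleus had 2505 to 2797 UMIs, and 7 to 18 cell barcodes were shared by each pair of libraries. The median share of mitochondrial UMIs ran from 0.417% to 1.66%, with control mouse 1 and knockout mouse 1 above the other mouse of their group. Nuclei were grouped without use of the 10 genes and named after the markers they carried, so that each name below means a group of nuclei like that cell type. This gave 13 broad classes with 25447 nuclei and 3 narrower classes inside them. CD principal cells (CD-PCs, 1246 nuclei) held sodium channel principal cells, marked by *Scnn1b*, *Scnn1g* and *Hsd11b2*, and inner medullary collecting duct (IMCD) nuclei, marked by *Akr1b3*, *Slc14a2* and *Cryab*. Endothelial cells held a cluster of descending vasa recta and arterial endothelium (DVR). Levels are UMIs of a gene per 1000000 UMIs of the class in 1 mouse (CPM), so they may be compared between classes for 1 gene. Counting at the 3′ end does not read the deleted exons, and *Tfap2a* in CD-PCs was at 57.8 and 100.2 CPM in the control mice and 68.1 and 110.5 CPM in the knockout mice, with overlapping groups, so these counts do not check the deletion. In the connecting tubule (CNT), which lies before the CD, it was at 119 and 124 CPM against 73.9 and 70.1 CPM (log2 fold change -0.75, SE 0.29, edgeR adjusted p = 0.999).

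RNA set free from broken cells gives every nucleus some UMIs of abundant genes, and a level was therefore called above background only if it was over 2 times the level that free RNA would give the class, with at least 3 UMIs, in both control mice. Of the 160 pairs of a member and a class, 51 passed, or 31.9%, against 35.8% over all genes with a UMI in a named control nucleus. *Adcy6* passed in 12 of the 16 classes, *Aqp11* in 8, *Avpr2* and *Aqp3* in 6 each, *Aqp4* in 5, *Aqp1* and *Aqp2* in 4 each, *Aqp6* in 3, *Avpr1a* in 2 and *Aqp7* in 1. The heat map of control levels shows how unequal these territories were.

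**Figure D1:**
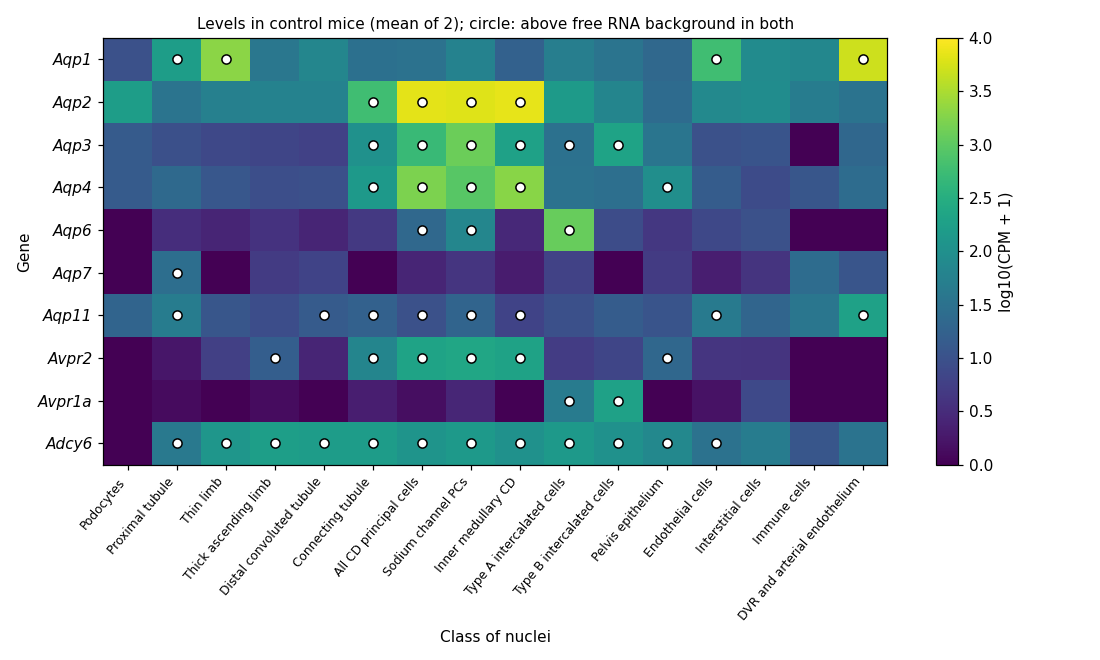
Level of each of the 10 genes (rows) in the 16 classes (columns) as log10(CPM + 1) of the mean of the 2 control mice, with a circle where the level was above the free RNA background in both. The 4 genes *Aqp2*, *Aqp3*, *Aqp4* and *Avpr2* share the block of principal cell columns, *Aqp6* and *Avpr1a* lie in the intercalated columns, and *Adcy6* has circles in 12 classes.

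The V2 receptor gene *Avpr2*, on the X chromosome (chrX:73891765-73894428, build GRCm38.p6), was highest in principal cells. In the 2 control mice, sodium channel principal cells had 278 and 187 CPM and IMCD nuclei had 251 and 155 CPM, and these ranges overlapped. The CNT followed with 54.9 and 73.1 CPM, below both principal cell classes in both mice. The thick ascending limb (TAL), where vasopressin drives salt uptake, had 17.7 and 11.9 CPM against a background of 3.50 and 2.09 CPM, and so did pass, although at a level far under that of principal cells. The deep medullary epithelium of the pelvis had 27.3 and 13.5 CPM from 7 and 6 UMIs. The distal convoluted tubule (DCT), which lies between TAL and CNT, held 0 and 1 UMIs of *Avpr2*. A cluster next to the thin limb that was led by *Psca* and that the markers did not name held 2 and 10 *Avpr2* UMIs, or 54.8 and 33.7 CPM, and its knockout nuclei 81.0 and 96.8 CPM from 3 and 9 UMIs. CD-PCs held 72.6% of all *Avpr2* UMIs in nuclei of control mouse 1 (Wilson 95% interval 68.3% to 76.5%) and 71.3% in control mouse 2 (66.8% to 75.4%), and TAL held 10.6% and 8.55%.

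The V1a receptor gene *Avpr1a*, whose product signals through calcium instead of cyclic AMP, belonged to intercalated cells, the acid and base secreting cells that are scattered between principal cells. Type B intercalated cells, marked by *Slc26a4* and *Slc4a9*, had 174 and 219 CPM in the control mice, and type A cells, marked by *Slc4a1* and *Kit*, had 31.1 and 60.5 CPM. The 2 mice of type B both lay above the 2 of type A. No other class passed. Thin limb and DCT nuclei had 0 UMIs in all 4 mice, which in the control mice allows up to 5.58 and 4.21 CPM in thin limb (3 UMIs, counting error only). The 250 bases before the *Avpr1a* start (chr10:122448249-122448498, plus strand, RefSeq on GRCm38.p6) are shown because they matched 1 of the 4 motifs searched on both strands. Among the 8 members with a window, windows of *Aqp1*, *Aqp2* and *Aqp7* also matched at least 1 motif. The site of AP-2, the family of *Tfap2a*, was spelled GCCNNNGGC and the cyclic AMP response element (CRE) TGACGTCA. A shorter form contained in the CRE was spelled TGACG, and AGATAA was searched as the site of GATA factors. Capitals mark TGACG at position -165, counted back from -1 for the base before the start.

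Avpr1a: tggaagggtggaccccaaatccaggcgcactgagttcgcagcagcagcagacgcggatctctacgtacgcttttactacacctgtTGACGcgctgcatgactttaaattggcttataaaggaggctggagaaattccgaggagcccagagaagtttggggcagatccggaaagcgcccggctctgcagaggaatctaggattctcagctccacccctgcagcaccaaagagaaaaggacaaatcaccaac

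*Adcy6* (chr15:98589978-98610287), a cyclic AMP producing enzyme that V2 receptors can drive, was the most widely found member. The highest levels stood in TAL with 151 and 195 CPM, CNT with 135 and 185 CPM and DCT with 169.5 and 148 CPM, and the ranges of these 3 classes overlapped. In the CD, sodium channel principal cells had 142 and 145 CPM and IMCD nuclei 96.7 and 113 CPM, so the former lay above the latter in both mice. Both kinds of intercalated cells and the thin limb also passed, with 124.5 and 153 CPM in type A, 88.9 and 117 CPM in type B and 109.8 and 139 CPM in thin limb. PT had only 37.0 and 45.2 CPM, but through its number of nuclei it held 34.5% and 20.7% of all *Adcy6* UMIs. Podocytes, interstitial cells, immune cells and DVR did not pass.

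*Aqp2* (chr15:99579056-99584545), the channel that vasopressin moves to the luminal membrane, was almost wholly a principal cell transcript. IMCD nuclei had 7564 and 6883 CPM in the control mice and sodium channel principal cells had 6253 and 6357 CPM, so that IMCD lay above in both mice. CNT had 364 and 818 CPM, above its background of 93.6 and 61.5 CPM and far below both principal cell classes. With only nuclei under 1% mitochondrial UMIs, CNT of control mouse 1 had 107 CPM from 8 UMIs, against a background of 103 CPM. CNT did not pass there. All other classes lay between 20.3 and 261 CPM and none passed, as free RNA in barcodes under 100 UMIs carried *Aqp2* at 585 and 901 CPM. CD-PCs held 85.9% of the *Aqp2* UMIs in nuclei of control mouse 1 (Wilson 95% interval 85.3% to 86.6%) and 86.6% in control mouse 2 (86.0% to 87.1%).

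Within principal cells, *Aqp2* differed more between clusters than between the 2 classes. IMCD held mainly a cluster led by *Aldh1a3*, with 13239 and 8544 CPM, and one led by *Akr1b3*, with 4592 and 5673 CPM. The sodium channel class held a cluster led by *Hsd11b2*, with 9758 and 8183 CPM, and one led by *Mgat4c*, with 1357 and 1918 CPM. The *Mgat4c*-led cluster was thus the lowest in both control mice. The *Aldh1a3*-led cluster was the highest in each control mouse, but its range overlapped with that of the *Hsd11b2*-led one. Its median UMI count was 0.868 times that of all nuclei of the same libraries, against 1.24 times in the *Hsd11b2*-led cluster, and its summed TAL markers were 3150 and 2089 CPM against 2238 and 976 CPM in the *Hsd11b2*-led cluster. Their part in the lower *Aqp2* was not tested.

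The *Aqp2* promoter (chr15:99578806-99579055, plus strand, RefSeq on GRCm38.p6) is shown because it carried both the shorter CRE and GATA, each on the minus strand. Capitals mark CGTCA at position -211, which reads TGACG on the other strand, and TTATCT at position -202, which reads AGATAA. AP-2 and the full CRE did not match in this window. Over all 32851 promoter windows of this length, TGACG was found in 17.77%, AGATAA in 9.988%, the AP-2 motif in 13.73% and the full CRE in 1.546%.

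Aqp2: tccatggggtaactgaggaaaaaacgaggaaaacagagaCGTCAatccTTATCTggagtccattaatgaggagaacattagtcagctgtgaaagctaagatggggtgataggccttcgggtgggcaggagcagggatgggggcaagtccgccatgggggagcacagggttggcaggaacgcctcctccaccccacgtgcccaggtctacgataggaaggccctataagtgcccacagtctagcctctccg

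*Aqp3* (chr4:41092724-41098183), a water and glycerol channel of the basolateral membrane, was highest in sodium channel principal cells, at 1543 and 1027 CPM in the control mice. IMCD nuclei had 193 and 201 CPM, so both control mice lay below their own and the other mouse's sodium channel principal cells. This is the order opposite to *Aqp2* and *Aqp4*, for which IMCD was the higher class. Type B intercalated cells had 222 and 196 CPM, a range that overlapped with that of IMCD, whereas type A cells had 25.9 and 35.0 CPM from 5 and 11 UMIs. The 8 principal cell markers, all of them present in both, summed to 2729 and 2612 CPM in type B cells and to 3066 and 3430 CPM in type A cells, of which *Tfcp2l1* alone gave 2333 and 2354 CPM and 2433 and 2602 CPM. Their part in the *Aqp3* of these cells was not tested. CNT had 73.2 and 135 CPM. CD-PCs held 66.2% and 74.8% of all *Aqp3* UMIs. By cluster, *Aqp3* had 2244 and 1340 CPM in the *Hsd11b2*-led, 563 and 266 CPM in the *Mgat4c*-led, 448 and 318 CPM in the *Aldh1a3*-led and 60.2 and 115 CPM in the *Akr1b3*-led cluster, and the middle 2 overlapped, with the *Aldh1a3*-led one higher in control mouse 2. The *Aqp3* promoter, shown as the counterpart to that of *Aqp2* (chr4:41098184-41098433, minus strand), matched none of the 4 motifs and therefore has no capitals.

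Aqp3: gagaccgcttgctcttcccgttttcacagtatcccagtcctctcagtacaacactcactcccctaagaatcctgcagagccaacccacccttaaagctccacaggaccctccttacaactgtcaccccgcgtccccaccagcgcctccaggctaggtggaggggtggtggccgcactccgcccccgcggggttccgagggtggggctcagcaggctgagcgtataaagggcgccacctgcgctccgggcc

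*Aqp4*, the other basolateral water channel, was highest in IMCD nuclei at 1784 and 2145 CPM. It was lower in sodium channel principal cells of both mice, at 712 and 1115 CPM. The *Aldh1a3*-led IMCD cluster had 2769 and 2483 CPM, the *Akr1b3*-led one 1268 and 1898 CPM, the *Hsd11b2*-led cluster 1130 and 1389 CPM and the *Mgat4c*-led cluster 127 and 447 CPM. The *Akr1b3*-led and *Hsd11b2*-led clusters overlapped. In each control mouse *Aqp2* and *Aqp4* had the same highest and the same lowest cluster, although for *Aqp2* the highest overlapped with the *Hsd11b2*-led cluster. CNT was uneven, with 27.5 CPM in control mouse 1 and 261 CPM in control mouse 2. The pelvic epithelium passed with 97.4 and 87.9 CPM. PT as a whole had 9.21 and 34.5 CPM and did not pass, but its *Cyp7b1*-led cluster had 26.3 and 79.4 CPM from 81 and 222 UMIs, while the other PT clusters of over 1000 nuclei had 2.10 to 14.8 CPM in the control mice.

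**Figure D2:**
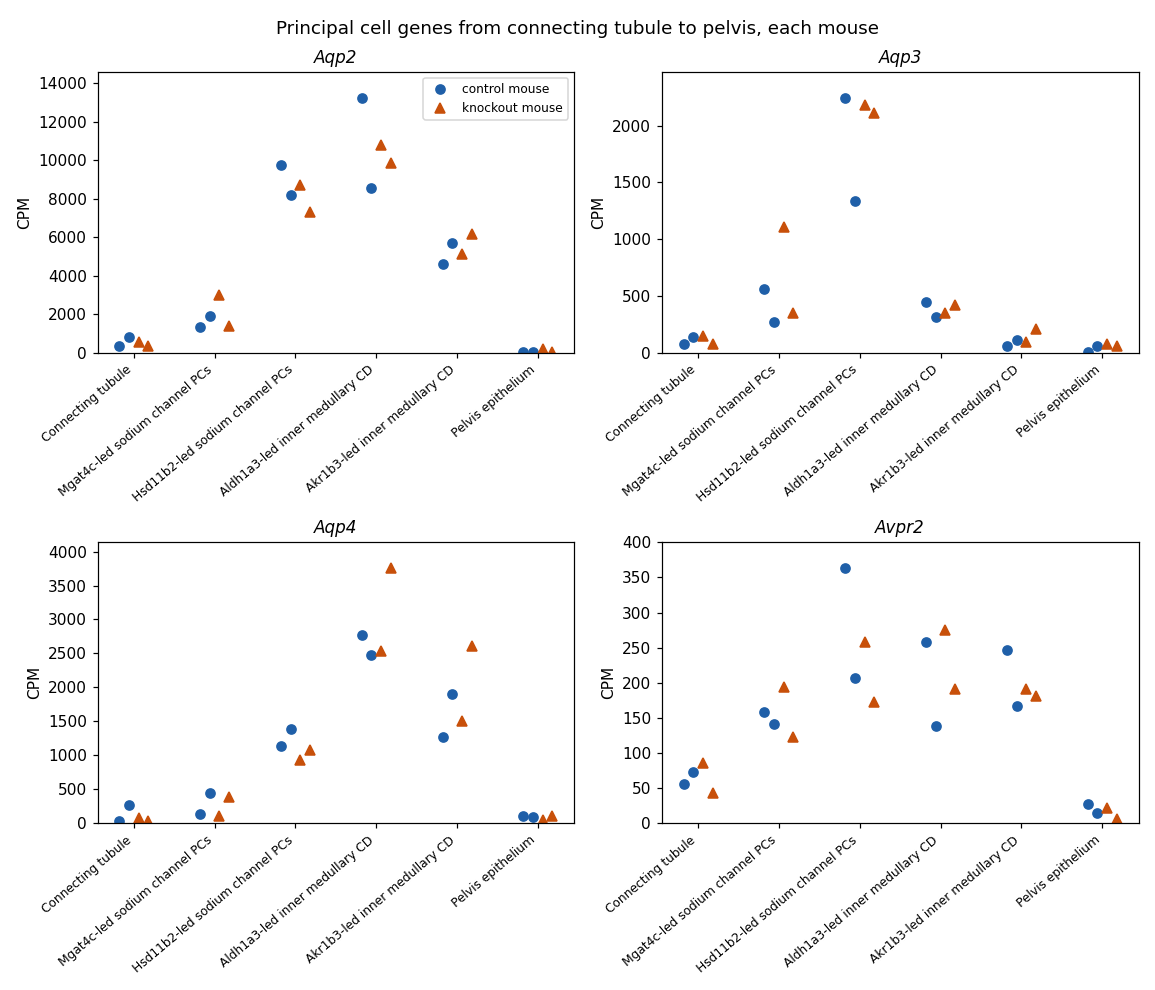
Level in CPM of *Aqp2*, *Aqp3*, *Aqp4* and *Avpr2* (1 panel each) in the CNT, the 4 main principal cell clusters and the pelvic epithelium, with 1 circle for each control mouse and 1 triangle for each knockout mouse. *Aqp3* peaks in the *Hsd11b2*-led cluster (2244 and 1340 CPM in control mice) and *Aqp4* in the *Aldh1a3*-led cluster (2769 and 2483 CPM), while control and knockout points mostly overlap.

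*Aqp1* (chr6:55336299-55348555), the constitutive water channel, had its highest level outside the epithelium. DVR endothelium had 5810.05 and 3928 CPM in the control mice from 277 and 269 UMIs in only 23 and 33 nuclei. The thin limb had 2407 and 1596 CPM, all endothelial cells together 582 and 616 CPM and PT 180 and 156 CPM, and each of these 4 classes lay apart from the next in both mice. The endothelial sum contains the DVR nuclei, and without them it was 283 and 158 CPM and overlapped with PT. PT nonetheless held 49.1% and 39.3% of all *Aqp1* UMIs by its number of nuclei, and thin limb 27.1% and 39.0%. Interstitial cells followed with 113 and 57.2 CPM against a background of 99.4 and 61.9 CPM and did not pass.

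*Aqp1* also separated clusters within a class. In the thin limb, clusters led by *Tshz2* and by *Fst* had 5501 and 3600 CPM and 3190 and 2017 CPM. Those led by *Cryab* and by *Slit3* had 438 and 102 CPM and 293 and 74.0 CPM. Textbook anatomy places AQP1 in the descending thin limb, though not along all of it, and not in the ascending one. *Slc14a2* was among the leading genes of the *Slit3*-led cluster. Which limb each of these clusters came from was not tested. Among PT clusters of over 1000 nuclei, the *Cyp7b1*-led one was highest with 292 and 233 CPM and the others had 56.2 to 188 CPM. Among endothelial clusters, that led by *Emcn* and *Plat* had 703 and 439 CPM, and the largest, led by *Meis2*, had 90.5 and 67.0 CPM. Thin limb markers summed to 23192 and 6113 CPM in the *Emcn* and *Plat*-led cluster, of which *Cryab* alone gave 23003 and 5858 CPM. *Cryab* also marks IMCD, and control mice had 14530 and 10455 CPM of it in thin limb and 19581 and 7670 CPM in IMCD. The part of other cell types in the *Aqp1* level of this endothelial cluster was not tested. The promoter of *Aqp1* (chr6:55336049-55336298, plus strand) is shown because it was the only one with an AP-2 match among the members with a window. *Aqp4* and *Adcy6* were not searched. The match is marked in capitals at position -81.

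Aqp1: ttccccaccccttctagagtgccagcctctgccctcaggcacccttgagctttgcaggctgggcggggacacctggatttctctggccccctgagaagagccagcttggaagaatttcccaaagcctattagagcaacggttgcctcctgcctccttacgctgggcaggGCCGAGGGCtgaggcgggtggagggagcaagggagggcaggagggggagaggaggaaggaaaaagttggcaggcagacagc

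*Aqp7* (chr4:41033074-41048237), a water and glycerol channel of the PT brush border, passed in PT alone, at 22.6 and 32.0 CPM. Its level was again highest in the *Cyp7b1*-led cluster, at 49.7 and 65.8 CPM, against 4.69 to 16.1 CPM in the other PT clusters of over 1000 nuclei. PT held 87.0% and 89.3% of its UMIs. One of its 2 promoter windows matched AGATAA at position -132. Its neighbour *Aqp3* lies 44486 bases away on chromosome 4, with 1 annotated gene between, and was at 1.95 and 4.65 CPM in the same cluster.

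*Aqp11* (chr7:97726379-97738247), a channel of intracellular membranes whose loss is known to give PT vacuoles and renal cysts in mice, was spread evenly over PT. PT had 53.2 and 41.2 CPM, and its clusters of over 1000 nuclei lay between 36.5 and 57.5 CPM, without the peak that *Aqp1* and *Aqp7* showed in the *Cyp7b1*-led cluster. The level was highest in DVR endothelium at 231 and 161 CPM, which rest on 11 UMIs in each control mouse. The other endothelial clusters had 0 to 61.5 CPM. PT nuclei held 79.9% and 73.8% of all *Aqp11* UMIs. CNT, DCT and the principal cell classes passed at 4.68 to 23.2 CPM. In CNT, DCT, sodium channel principal cells and IMCD these levels rest on 4 to 9 UMIs per control mouse. None of these pairs passed at over 5 times the background, or with nuclei under 1% mitochondrial UMIs.

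**Figure D3:**
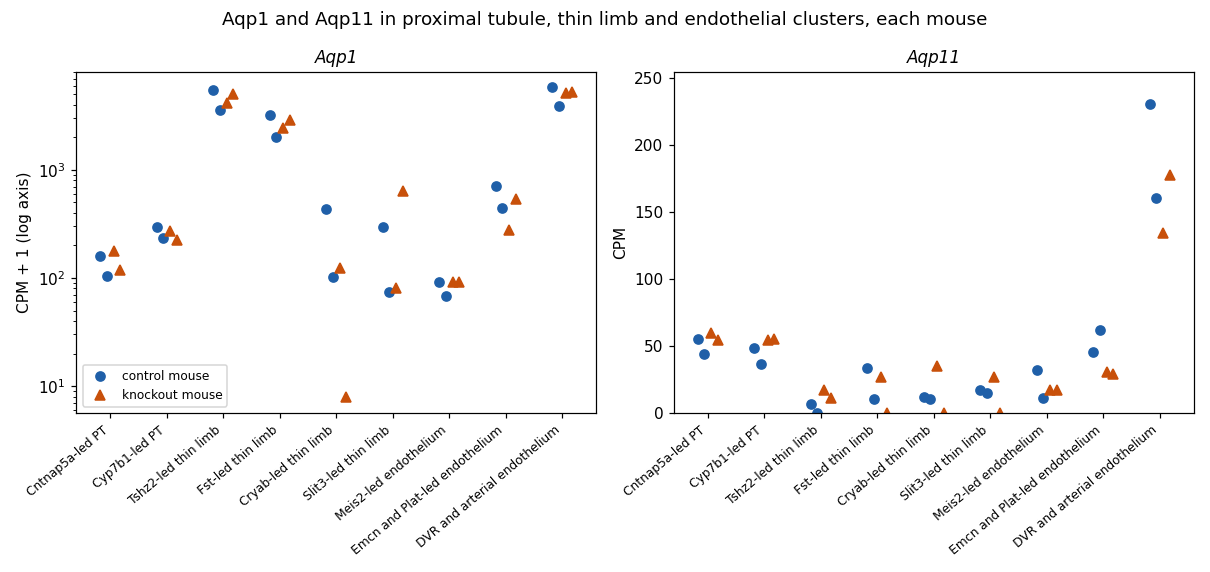
Level of *Aqp1* (left, CPM + 1 on a log axis) and *Aqp11* (right, CPM) in 2 PT, 4 thin limb and 3 endothelial clusters, with 1 circle for each control mouse and 1 triangle for each knockout mouse. *Aqp1* separates the *Tshz2*-led and *Fst*-led thin limb clusters (2017 to 5501 CPM in control mice) from the *Cryab*-led and *Slit3*-led ones (74.0 to 438 CPM), and both genes are high in DVR endothelium.

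*Aqp6* (chr15:99598468-99605478), a channel of intracellular vesicles in acid-secreting cells, was a type A intercalated cell transcript. Type A cells had 1224 and 1118 CPM, and type B cells had 14.8 and 0 CPM from 4 and 0 UMIs. Type A cells held 74.7% of all *Aqp6* UMIs in control mouse 1 (Wilson 95% interval 69.6% to 79.2%) and 80.0% in control mouse 2 (76.0% to 83.4%). Sodium channel principal cells also passed, with 89.4 and 45.3 CPM, nearly all of it from the *Hsd11b2*-led cluster at 153 and 61.9 CPM. In that cluster the summed level of the 3 type A markers was 176 and 64.0 CPM in the same mice. With called doublets left out, sodium channel principal cells of the control mice had 92.9 and 48.5 CPM of *Aqp6*. The part of type A RNA or of doublets that were not called was not tested. *Aqp2*, *Aqp5* and *Aqp6* are neighbours on chromosome 15, with 13922 bases between *Aqp2* and *Aqp6*. In IMCD, where *Aqp2* was highest, *Aqp6* had 1 and 3 UMIs and *Aqp5* 2 and 4 UMIs.

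**Figure D4:**
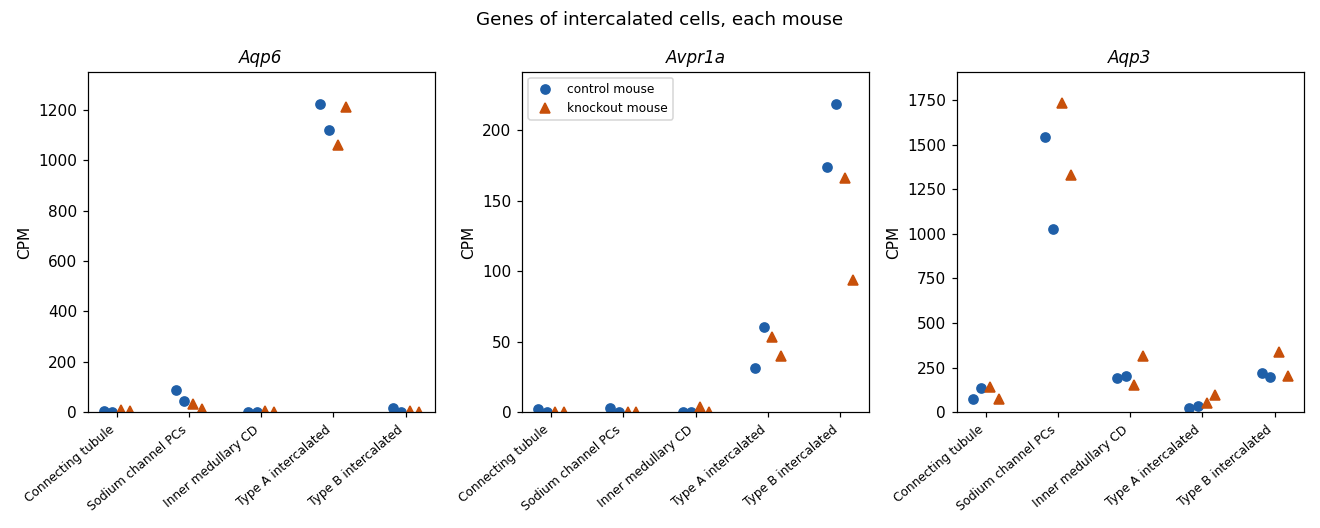
Level in CPM of *Aqp6*, *Avpr1a* and *Aqp3* (1 panel each) in CNT, both principal cell classes and both intercalated cell classes, with 1 circle for each control mouse and 1 triangle for each knockout mouse. Type A cells carry *Aqp6* (1224 and 1118 CPM in control mice), type B cells carry *Avpr1a* (174 and 219 CPM) and *Aqp3* (222 and 196 CPM).

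Of the 5 other aquaporins in the matrices, *Mip*, *Aqp8* and *Aqp12* passed in 0 of 16 classes. *Aqp5* passed in the pelvic epithelium with 11.7 and 20.3 CPM from 3 and 9 UMIs, and in interstitial cells from 4 and 3 UMIs. *Aqp9* passed in TAL with 1.11 and 0.990 CPM from 3 UMIs in each mouse. The other vasopressin receptor gene *Avpr1b* had 0 CPM in CD-PCs of all 4 mice, and the oxytocin receptor gene *Oxtr* had 3.12 and 0 CPM in the control mice.

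The likeness of patterns was described by Pearson's r of log2(CPM + 1), averaged over the control mice, across the 16 classes, which share the same 2 libraries and partly contain each other. Among the members, *Aqp4* and *Avpr2* were most alike (r = 0.89), followed by *Aqp3* and *Avpr2* (0.86) and by *Aqp2* and *Aqp4* (0.85). *Aqp1* had its highest value with *Aqp11* (0.63), and *Avpr1a* with *Aqp6* (0.49). Over all genes with at least 100 UMIs in control classes, *Aqp4* was most like *Wnt9b* (0.94), *Gm49334* (0.92) and *H2afj* (0.91), and *Aqp2* most like *Fmn2* (0.91), *Adgra1* (0.90) and again *Gm49334* (0.89). *Aqp3* went with *Mgat4c* (0.93), *Frmpd4* (0.93) and *Tpd52l1* (0.92). *Avpr2* went with the prostaglandin receptor gene *Ptger1* (0.93), *Efna4* (0.93) and *Tspan1* (0.93). For the intercalated genes, *Aqp6* was most like *Dmrt2* (0.94), *Gcnt4* (0.90) and *2610016A17Rik* (0.85), and *Avpr1a* most like *Gm12121* (0.96), the type B anion exchanger gene *Slc4a9* (0.96) and *Rorb* (0.96). *Aqp1* was most like *Sesn1* (0.92), *Egfl8* (0.89) and the vascular growth factor gene *Vegfc* (0.88). *Aqp7* was most like *Atxn7* (0.88), *Idi1* (0.87) and *Slc7a7* (0.84), *Aqp11* most like *Abcg2* (0.89), *Lef1* (0.86) and *Ccny* (0.85), and *Adcy6* most like *Hoxb5os* (0.95), *Fam20b* (0.95) and *Bzw2* (0.94).

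The comparison of the groups asked whether loss of *Tfap2a* from the CD was accompanied by other levels of these genes. For each class, the UMIs of all its nuclei in 1 mouse were added up, and the 2 knockout mice were compared with the 2 control mice by edgeR's quasi-likelihood test, with p-values adjusted over all genes of a class. Among 98 tests of a member in a class, 0 had an adjusted p under 0.05, against 11 of 166491 tests over all genes (0.00661%). DESeq2 called 0 as well, and the lowest adjusted p with edgeR was 0.984. With edgeR, 9 of the 98 member tests had an unadjusted p under 0.05, a larger share than the 2.97% over all genes. Of these 9, 5 were pairs not above background, namely *Aqp2* in podocytes, TAL, type B cells and the pelvic epithelium and *Aqp7* in TAL. Class by class, 0 members were called where all genes gave 0.00563% in PT, 0.0135% in TAL, 0.024% in endothelial cells and 0.049% in immune cells. With 2 mice a group, an exact permutation test cannot give a two-sided p below 0.333, and labels do not say whether the numbered mice shared a litter or a day.

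*Aqp2* in CD-PCs stood at 7279 and 6557 CPM in the control mice and at 6311 and 6845 CPM in the knockout mice. The groups overlapped, and the log2 fold change was -0.08 (SE 0.51). IMCD nuclei had 6363 and 8015 CPM in the knockout mice (log2 fold change -0.01, SE 0.45), around the control values of 7564 and 6883 CPM. Sodium channel principal cells had 6338 and 4675 CPM in the knockout mice (log2 fold change -0.20, SE 0.39).

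*Avpr2* in CD-PCs stood at 257 and 164 CPM in the control mice and 215 and 172 CPM in the knockout mice, so that the knockout values lay inside the control range (log2 fold change -0.12, SE 0.30). In sodium channel principal cells the knockout mice had 232 and 150.0 CPM and in IMCD 209 and 186 CPM, with log2 fold changes of -0.24 (SE 0.32) and -0.03 (SE 0.32). TAL had 10.6 and 13.9 CPM in the knockout mice and overlapped as well.

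*Aqp3* was at 516 and 510 CPM in CD-PCs of the control mice and at 860 and 667 CPM in those of the knockout mice. The knockout mice were both higher, by 0.56 on the log2 scale (SE 0.32, edgeR adjusted p = 1.00), as were 14.1% of all genes tested in this class. Sodium channel principal cells, with the higher *Aqp3*, made up 31.5% and 44.2% of control CD-PCs and 52.1% and 44.0% of knockout CD-PCs. These shares overlapped between the groups, with control mouse 1 lowest and knockout mouse 1 highest, and their part in the *Aqp3* level of CD-PCs was not tested. Inside the 2 classes the groups overlapped, with 1732 and 1329 CPM in sodium channel principal cells of the knockout mice (log2 fold change 0.26, SE 0.34) and 152 and 314 CPM in IMCD (0.23, SE 0.36).

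*Aqp4* in CD-PCs was at 1540 and 1740 CPM in the control mice and at 1220 and 2337 CPM in the knockout mice, and its log2 fold change was 0.10 (SE 0.43). Its 2 principal cell classes leaned in opposite directions. Sodium channel principal cells of the knockout mice had 586 and 771 CPM (log2 fold change -0.45, SE 0.34) and IMCD 1738 and 3182 CPM (0.31, SE 0.42), and the groups overlapped in both. The difference between these 2 changes, tested as an interaction with the mouse as a term, was -0.69 on the log2 scale (SE 0.28, unadjusted p = 0.0122, adjusted p = 1 over all genes). Of 8 members tested for this interaction with edgeR, 0 had an adjusted p under 0.05, against 6 of 13282 genes (0.0452%), and 2 an unadjusted p under 0.05, against 3.76% of all genes. The other one was *Aqp1* (-1.43, unadjusted p = 0.0187), which was not above background in either class.

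*Adcy6* in CD-PCs was at 109 and 125 CPM in the control mice and at 90.9 and 99.0 CPM in the knockout mice. Both knockout mice were lower, by -0.31 on the log2 scale (SE 0.26, edgeR adjusted p = 1.00), as were 13.3% of all genes tested in CD-PCs, *Aqp6* among them. The pelvic epithelium had 62.3 and 83.4 CPM of *Adcy6* in the control mice and 29.0 and 31.0 CPM in the knockout mice, from 16, 37, 4 and 5 UMIs. The groups did not overlap there (log2 fold change -1.24, SE 0.52, unadjusted p = 0.0256, edgeR adjusted p = 1.00), and both knockout mice were below both control mice for 20.9% of all genes tested in this class. In type B cells, *Adcy6* was higher in both knockout mice, with 118 and 123 CPM against 88.9 and 117 CPM (edgeR unadjusted p = 0.611). Of all genes tested in type B cells, 15.5% were higher in both knockout mice. In DCT the knockout mice had 169.5 and 205 CPM, the lower of which equalled the higher control mouse to the digits given (edgeR unadjusted p = 0.489).

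**Figure D5:**
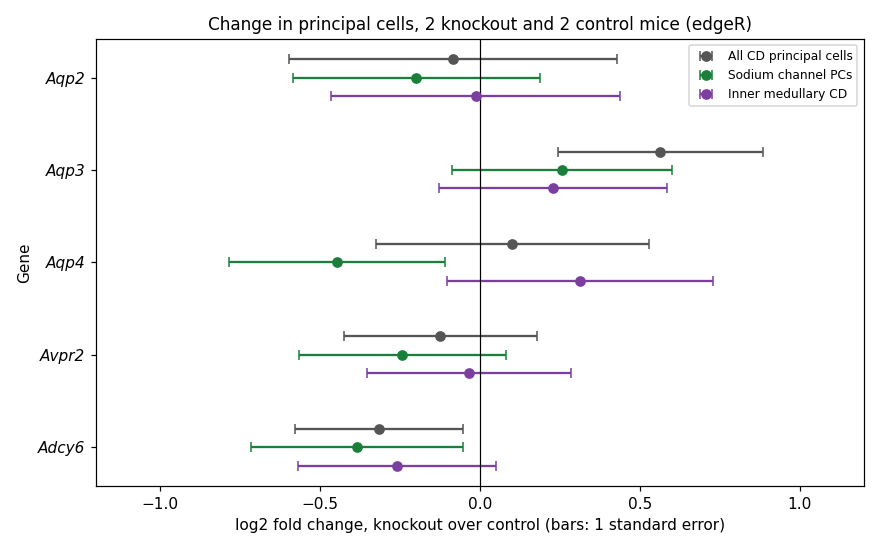
Log2 fold change of knockout over control mice (x axis) for the 5 genes of vasopressin-regulated water transport in all CD-PCs, sodium channel principal cells and IMCD. Bars are 1 standard error, derived from edgeR's fold change and F statistic. Bars of *Aqp2* and *Avpr2* cross 0 in all 3 classes, and *Aqp3* (0.56 in CD-PCs) and *Adcy6* (-0.31) lie on opposite sides.

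Among intercalated cells, *Aqp6* in type A cells was at 1059 and 1213 CPM in the knockout mice (log2 fold change -0.05, SE 0.31) against 1224 and 1118 CPM, and the groups overlapped. *Avpr1a* in type B cells was at 166 and 93.6 CPM in the knockout mice, below the 174 and 219 CPM of the control mice (log2 fold change -0.57, SE 0.42, edgeR adjusted p = 1.00), and 13.5% of all genes tested in type B cells were lower in both knockout mice. *Aqp3* in type A cells was at 53.2 and 98.1 CPM in the knockout mice, above 25.9 and 35.0 CPM, with a log2 fold change of 1.28 (SE 0.50, unadjusted p = 0.0248, edgeR adjusted p = 0.999), and 15.4% of all genes tested in type A cells were higher in both. The level of *Aqp6* in sodium channel principal cells was 33.1 and 12.5 CPM in the knockout mice, below the 89.4 and 45.3 CPM of the control mice (log2 fold change -1.34, SE 0.50, unadjusted p = 0.0183, edgeR adjusted p = 1.00), where 14.3% of all genes tested were lower in both knockout mice. The summed type A markers in that class were 103 and 49.7 CPM in the control mice and 21.3 and 16.7 CPM in the knockout mice, all 3 of them present, and their part was not tested.

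Outside the CD, *Aqp1* in thin limb was at 1513 and 1989 CPM in the knockout mice and in DVR endothelium at 5109 and 5286 CPM, with log2 fold changes of -0.23 (SE 0.43) and 0.03 (SE 0.55). PT had 178 and 139 CPM (-0.10, SE 0.19). Over all endothelial cells, *Aqp1* was lower in both knockout mice, with 298 and 422 CPM against 582 and 616 CPM (log2 fold change -0.72, SE 0.28, unadjusted p = 0.0211, edgeR adjusted p = 0.998), as were 17% of all genes tested there. Of 7 members tested in endothelial cells, 4 were lower in both knockout mice (*Aqp1*, *Aqp2*, *Aqp6* and *Aqp11*) and 0 higher, where 13.6% of all genes were higher. Of these 4, *Aqp2* and *Aqp6* were not above background in this class. The DVR cluster held 23 and 33 control and 20 and 11 knockout nuclei. Without it, *Aqp1* was at 283 and 157.5 CPM in the control mice and 94.1 and 157.1 CPM in the knockout mice. Both knockout mice were still lower, but knockout mouse 2 lay just under control mouse 2. The *Emcn* and *Plat*-led cluster had 703 and 439 CPM against 275 and 542 CPM, and its groups overlapped. Thin limb markers summed to 6316 and 1742 CPM in all endothelial cells of the control mice and to 1954 and 2700 CPM in those of the knockout mice. All 8 were present, but nearly all of it was *Cryab*, which also marks IMCD, and their part was not tested.

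*Aqp7* in PT was at 19.1 and 19.0 CPM in the knockout mice, below 22.6 and 32.0 CPM (-0.52, SE 0.21, edgeR adjusted p = 1.00), and *Aqp11* in PT at 60.5 and 55.9 CPM, above 53.2 and 41.2 CPM (0.28, SE 0.20, edgeR adjusted p = 1.00). In PT, 13.9% of all genes tested were lower and 16.6% higher in both knockout mice. *Aqp11* was also higher in both knockout mice in IMCD, at 9.52 and 6.63 CPM against 6.24 and 4.68 CPM from 5, 3, 6 and 5 UMIs, the 1 of 7 members there, where 13% of all genes were higher. None of the 7 was lower in both, against 13.7% of all genes, and of 3 members tested in interstitial cells 0 were higher, against 14%. The lowest unadjusted p of a member was that of *Aqp2* in podocytes (0.00512, edgeR adjusted p = 1.00), which rests on 30 and 4 UMIs in control and 2 and 0 in knockout nuclei.

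Single mice set the calls that other choices of samples gave. Without control mouse 1, *Aqp4* in CNT had an edgeR adjusted p of 0.00235. In CNT, *Aqp4* was at 27.5 and 261 CPM in the control mice and at 68.3 and 25.5 CPM in the knockout mice, so it was control mouse 2 that stood apart. Without knockout mouse 1, *Aqp2* in podocytes and *Aqp1* in TAL were called (lowest adjusted p = 0.0160), and without knockout mouse 2, *Aqp2* in the pelvic epithelium (adjusted p = 0.00138). The last 3 pairs were not above background.

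The list of 70 other genes of this pathway, from prostaglandin receptors and kinase subunits to trafficking proteins, was examined in the same fits. In CD-PCs 63 of the 70 were tested with edgeR, of which 0 had an adjusted p under 0.05, where 0% of all genes were called. Of these 63, 6 had an unadjusted p under 0.05, a larger share than the 2.46% over all genes. Among these 6 was *Slc12a1*, a TAL gene described below. The part of TAL RNA or of the mix of principal cells in this share was not tested. Sodium channel principal cells gave 0 of 61 called, where 0.0181% of all genes were called. There, 3 were under the unadjusted threshold, against 3.5% of all genes. These 3 were *Slc12a1*, *Casr* and *Ptger3*, which TAL also expresses. In IMCD 0 of 62 were called, against 0.0083% of all genes, and 2 were under the unadjusted threshold, against 1.88%. The median log2 fold change of the list was -0.02 in CD-PCs, -0.02 in sodium channel principal cells and 0.02 in IMCD, against 0.00, 0.02 and -0.02 over all genes tested. *Gnas*, which encodes the stimulatory G protein subunit downstream of the V2 receptor, stood at 713 and 691 CPM in CD-PCs of the control mice and at 739 and 502 CPM in those of the knockout mice. *Slc14a2*, the vasopressin-regulated urea transporter gene, had 526 and 343 CPM against 372 and 511 CPM.

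The smallest p of the list belonged to *Slc12a1*, the salt transporter gene of TAL. In CD-PCs it was at 415 and 297 CPM in the control mice and at 141 and 116 CPM in the knockout mice (log2 fold change -1.47, SE 0.30, edgeR adjusted p = 0.755), and in sodium channel principal cells at 1126 and 496 CPM against 163 and 213 CPM (-2.11, SE 0.40, edgeR adjusted p = 0.198). *Casr* and *Ptger3*, which TAL also expresses, were next in the latter class (-1.37, SE 0.60, and -1.38, SE 0.63). The summed TAL markers in sodium channel principal cells, with all 6 present and *Slc12a1* and *Ptger3* among them, moved the same way, from 2618 and 1300 CPM to 602 and 471 CPM, and their part was not tested. The phosphodiesterase gene *Pde4d* was at 538 and 466 CPM in CD-PCs of the control mice and at 1386 and 588 CPM in those of the knockout mice (log2 fold change 0.97, SE 0.42), where knockout mouse 1 stood apart. *Tfap2b*, the other AP-2 gene of the distal nephron, was at 45.3 and 47.6 CPM in CD-PCs against 89.8 and 66.0 CPM (0.74, SE 0.28, edgeR adjusted p = 1.00). In sodium channel principal cells it was at 162 and 118 CPM against 198 and 183 CPM (0.47, SE 0.30). In IMCD it was at 9.36 and 5.62 CPM against 5.71 and 4.42 CPM (-0.53, SE 0.82). Both knockout mice were higher for 14.1% of all genes in CD-PCs and 15.7% in sodium channel principal cells. The part of the principal cell mix in the *Tfap2b* level of CD-PCs was not tested. The kinase subunit gene *Prkar2b* (82.8 and 51.5 CPM against 46.5 and 20.1 CPM) and the kinase anchor gene *Akap7* (21.1 and 33.4 CPM against 47.5 and 50.2 CPM) completed the 5 genes of smallest p in CD-PCs. In IMCD the list's smallest p-values after *Pde4d* and *Slc12a1* were those of *Gnai1* (14.6 and 17.8 CPM against 3.81 and 8.84 CPM) and of the cyclase gene *Adcy9* (60.3 and 88.1 CPM against 51.4 and 39.8 CPM), each with an unadjusted p above 0.05.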

How the data were processed

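Nuclei of 4 kidneys were profiled with 10x Genomics 3′ v3.1 chemistry. The deposited files hold UMI counts per gene and barcode, which the authors made with Cell Ranger 3.0.2 on mm10 (GRCm38) without normalization. From the 10000 largest barcodes of a library, nuclei were those with 500 to 4000 genes (limits not included) and less than 5% of UMIs from mitochondria, after the study's limits. Libraries were integrated in Seurat 5.3.0 (2000 variable genes, 30 dimensions, resolution 0.5), with the members left out of the variable genes and marker lists. Clusters were named from markers, with limits set after the clusters were seen, and 1043 damaged, 566 mixed, 109 dividing and 176 unnamed nuclei were left out of classes. Doublets were scored against simulated pairs, and the 4.35% to 6.40% of nuclei called per library were kept. Free RNA levels came from barcodes under 100 UMIs, scaled by the median over markers of other classes, a choice made after the data were seen. Class sums were tested with edgeR 4.0.16 (TMM, genes with at least 10 UMIs, Benjamini-Hochberg over all genes of a class), with DESeq2 1.42.0 as an alternative, in R 4.3.3. Standard errors (SE) were derived as the absolute log2 fold change divided by the square root of edgeR's F statistic. The scripts for the tests were tested on simulated data. The members and lists were chosen with earlier results of these data known. Text names the members, the other aquaporins, the 3 genes most like each member and the 5 pathway genes of smallest p in each principal cell class. *Gnas*, *Slc14a2*, *Avpr1b* and *Oxtr* of the pathway list were named outside this rule. Gene positions and promoters are from RefSeq (GRCm38.p6), in which 8 members had a window that could be shown. Intervals and floors cover counting error only. Nuclei of 1 mouse are not replicates, so p-values measure the spread between mice.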

Additional observations from a re-analysis of the deposited data

Results flagged for a closer look

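Among pairs of a member and a class above background, *Aqp11* and *Adcy6* had both knockout mice above both control mice in some classes and below them in others, and the differences between these changes were not tested. *Aqp11* was higher in the knockout mice by 0.30 (log2 ratio of group means of CPM) in PT and by 0.56 in IMCD, and its ratio was -0.89 in DCT and -0.70 in endothelial cells. Its control counts were 6 and 5 UMIs in IMCD, 6 and 4 in DCT and 37 and 24 in endothelial cells. Its knockout counts there were 5 and 3, 5 and 2, and 18 and 12 UMIs. Of all genes tested, 16.6% in PT and 13% in IMCD were higher in both knockout mice, and 12.9% in DCT and 17% in endothelial cells were lower. *Adcy6* was higher in the knockout mice by 0.24 in DCT and by 0.23 in type B intercalated cells, and its ratio was -1.28 in the deep medullary epithelium of the pelvis. In DCT the lower knockout mouse and the higher control mouse both had 169.5 CPM to the digits given. Of all genes tested, 15% in DCT and 15.5% in type B cells were higher in both knockout mice, and 20.9% in the pelvic epithelium were lower. No group held the 4 to 10 samples needed to look for single outlying mice.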

How the results depend on the processing

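The count of member tests past an adjusted p of 0.05 was 0 under DESeq2, without TMM, with edgeR's filterByExpr, without called doublets, with nuclei under 1% mitochondrial UMIs, after subtraction of free RNA, with the members left among the variable genes and at resolution 0.8. It was 1 without a filter on low counts (*Aqp4* in CNT, adjusted p = 0.0379) and 0 to 2 when 1 mouse was left out, where the lone mouse of a group is assumed to vary like the others. With the replicate block it was 1 (*Aqp2* in podocytes, adjusted p = 0.0290). The labels do not say that a number marks a shared litter or day, and same-numbered mice correlated at 0.0883 to 0.553 over classes in their deviations from the group means, so the numbers were not taken as pairs. The interaction between the principal cell classes gave 0 member calls in every alternative run, the replicate block included.

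Of the member and class pairs, 41 to 61 were above background at over 5 and over 1 times the free RNA level, 60 and 61 with 1 control mouse, 53 without called doublets, 47 with members among the variable genes, where *Aqp2* and *Aqp4* in CNT no longer passed, and 35 with nuclei under 1% mitochondrial UMIs, where 17 pairs no longer passed. *Aqp2* and *Aqp4* in CNT were among these 17 pairs, and were also lost at over 5 times the free RNA level. A background from summed instead of median markers, added after the data were seen, gave 40. In sodium channel principal cells, the log2 fold change of *Aqp3* ran from -0.02 to 0.69 over 14 alternatives and that of *Aqp2* from -0.44 to 0.22, with 0 calls. In CD-PCs, *Aqp3* ran from 0.36 to 0.73 and *Adcy6* from -0.42 to -0.17. Depth limits DVR endothelium, podocytes and immune cells most, with at most 33, 41 and 46 nuclei in any 1 mouse.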
